A study of Mus musculus with 12 samples.

Results

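The genes of antigen presentation on MHC class I were examined in 12 RNA-seq libraries from tumours that the mouse colon carcinoma line MC38 formed in C57BL/6J mice after injection under the skin. Members were the 10 rows of the deposited gene table named H2-K1, H2-D1, B2m, Tap1, Tap2, Tapbp, Nlrc5, Psmb8, Psmb9 and Psmb10, out of 43698 rows. All 10 were present, and all 10 were among the 19525 genes that passed the filter on low counts. Each of the 6 groups had 2 libraries. Mice were 8 weeks old, and every tumour was taken on day 20. Monotherapy was given into the abdomen every 3 days from day 9: PBS (Ctrl), 14 µg DOX (doxorubicin, 0.56 mg/kg), 14 µg DPD (the DOX prodrug, 0.56 mg/kg) or 20 µg of the antibody-catalyst conjugate Ru-PD-L1 (RP, 0.80 mg/kg), which is directed at PD-L1. In the combined groups, the drug (14 µg DOX in R+X, or DPD in R+D) was injected beside the tumour 6 hours after the conjugate. R+X was read as the DOX and R+D as the DPD combination, because the labels give no key, and if that reading is wrong the values of these groups change places. Only the combined groups had an injection beside the tumour, so the route of the drug cannot be told apart from the combination. The labels give no conjugate dose, first day or interval of injection for the combined groups, so a match with RP in these is not known. Whether both libraries of a group are from different mice is not stated, so the p-values rest on a spread between samples that may be technical.

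Cells cut cytosolic proteins with the proteasome and show the resulting peptides to CD8 T cells on MHC class I. H2-K1 and H2-D1 encode the classical class I heavy chains of the mouse, and B2m encodes beta-2-microglobulin, the invariant light chain that they need to reach the surface. Tap1 and Tap2 encode the transporter that moves peptides into the endoplasmic reticulum, and Tapbp encodes tapasin, which holds empty class I molecules at that transporter. Psmb8, Psmb9 and Psmb10 encode the inducible catalytic subunits of the immunoproteasome. They replace the constitutive subunits encoded by Psmb5, Psmb6 and Psmb7 and are known targets of interferon gamma. Nlrc5 encodes the class I transactivator, which acts through a composite promoter element (the S, X1, X2 and Y boxes) with RFX, CREB/ATF and NF-Y factors. Tumours often lose this pathway, and its level is a common readout of how visible tumour cells are to T cells.

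Promoter stretches are printed because several of these genes share the elements that Nlrc5 and interferon signals use. RefSeq promoter windows on build GRCm38.p6, with 250 bases before and 50 after each start, held 8 of the 10 genes. Tap2 and Nlrc5 had no entry. Lower case is plain sequence, and capitals mark script-found matches on either strand to TGACG (the core of the X2 box), ATTGG (an inverted CCAAT, the core of the Y box), the NF-kB consensus, the interferon-stimulated response element (GAAA, 2 bases, GAAA) or the gamma-activated site TTCNNNGAA. The H2-K1 and H2-D1 lines are the stretches 131 to 21 and 177 to 67 bases upstream of an annotated start, and they are shown together because 100 of their 111 bases are identical.
H2-K1 (chr17:34000354-34000464, minus strand): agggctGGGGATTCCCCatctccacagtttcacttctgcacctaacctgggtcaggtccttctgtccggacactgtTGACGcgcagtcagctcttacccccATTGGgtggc
H2-D1 (chr17:35262917-35263027, plus strand): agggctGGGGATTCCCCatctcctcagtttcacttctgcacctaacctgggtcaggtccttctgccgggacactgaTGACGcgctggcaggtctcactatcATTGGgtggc
B2m (chr2:122147542-122147643, plus strand): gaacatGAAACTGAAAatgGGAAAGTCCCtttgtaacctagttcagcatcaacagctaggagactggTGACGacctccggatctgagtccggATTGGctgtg
In each of these 3 promoters the TGACG and ATTGG matches lay 20 bases apart in the same order. All 3 also had an NF-kB match upstream of this pair (in H2-K1 and H2-D1 the capitals are a pair of overlapping matches), and B2m had the interferon-stimulated response element as well. Of all 32851 promoter windows, 20.8% held TGACG, 37.4% ATTGG, 4.51% the NF-kB consensus, 3.44% the interferon-stimulated response element and 8.3% TTCNNNGAA. The pair with 20 bases between was found in 31 windows (0.0944%), of 27 genes that also included the class Ib gene H2-M3. This spacing was looked for after it had been seen in H2-K1, so its rarity is only a description.

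Tap1 and Psmb9 start head to head, and the whole interval between their annotated starts is printed since both genes are transcribed outward from it.
Tap1 to Psmb9 (chr17:34187331-34187555, plus strand, Psmb9 start to the left and Tap1 start to the right): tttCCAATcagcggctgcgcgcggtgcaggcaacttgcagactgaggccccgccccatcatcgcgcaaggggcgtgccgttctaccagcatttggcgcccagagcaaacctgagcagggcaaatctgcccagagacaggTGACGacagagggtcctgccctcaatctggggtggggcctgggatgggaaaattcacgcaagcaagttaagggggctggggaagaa
Psmb8 (chr17:34198078-34198126, plus strand, 117 to 69 bases upstream): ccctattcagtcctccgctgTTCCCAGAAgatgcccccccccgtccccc
The shared interval held 1 TGACG and 1 CCAAT. Psmb8 was the only one of the 8 genes with a TTCNNNGAA match in its window, at 97 bases upstream. A match to these letters is a description and not a site of binding.

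In the RefSeq annotation of GRCm38.p6 most of the genes lie in or near the MHC on chromosome 17. They are Tapbp from 33919478 to 33929290, H2-K1 from 33996012 to 34000619, Psmb9 from 34182030 to 34187330, Tap1 from 34187556 to 34197225, Psmb8 from 34198195 to 34201454, Tap2 from 34204479 to 34216321 and H2-D1 from 35263094 to 35267497. B2m lies on chromosome 2 from 122147687 to 122153082. Nlrc5 and Psmb10 lie on chromosome 8, from 94434335 to 94527272 and from 105935728 to 105938392. All 10 are annotated as protein coding. Counts of the heavy chains are uncertain to some degree, since 8.79% of the 50-base stretches of the H2-K1 transcript and 14.3% of those of H2-D1 also occur in another gene, against 0 to 2% for the other 8. The 7 genes on chromosome 17 also have rows with a numbered suffix to the name, whose counts were not added.

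Library totals ran from 46547114 to 56462259 counts, and the edgeR biological coefficient of variation was 0.257. Levels are CPM, counts scaled to a common library size, after TMM scaling, and levels of different genes are compared per kilobase (kb) of transcript. B2m had the highest level (median over the 12 libraries 1748 CPM per kb), followed by H2-K1 (858) and H2-D1 (345), and the ranges of these 3 genes did not overlap. Psmb10 (105.9 CPM per kb) and Tapbp (78) came next with overlapping ranges. Psmb8 (43.4 CPM per kb) overlapped with Tapbp above it and with Tap1 (32) below it. Psmb9 (27.1 CPM per kb), Tap2 (18.7) and Nlrc5 (16.9) were lowest, and their ranges overlapped one another. The highest library exceeded the lowest 1.65-fold for H2-K1, the narrowest range of the 10, and 4.14-fold for Nlrc5, the widest. Tumour identity could be checked only in part, because the epithelial and carcinoma markers summed to 10.8 to 19.4 CPM in all libraries and Krt8, Krt18 and Cldn7 were below the low-count filter.

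**Figure D1:**
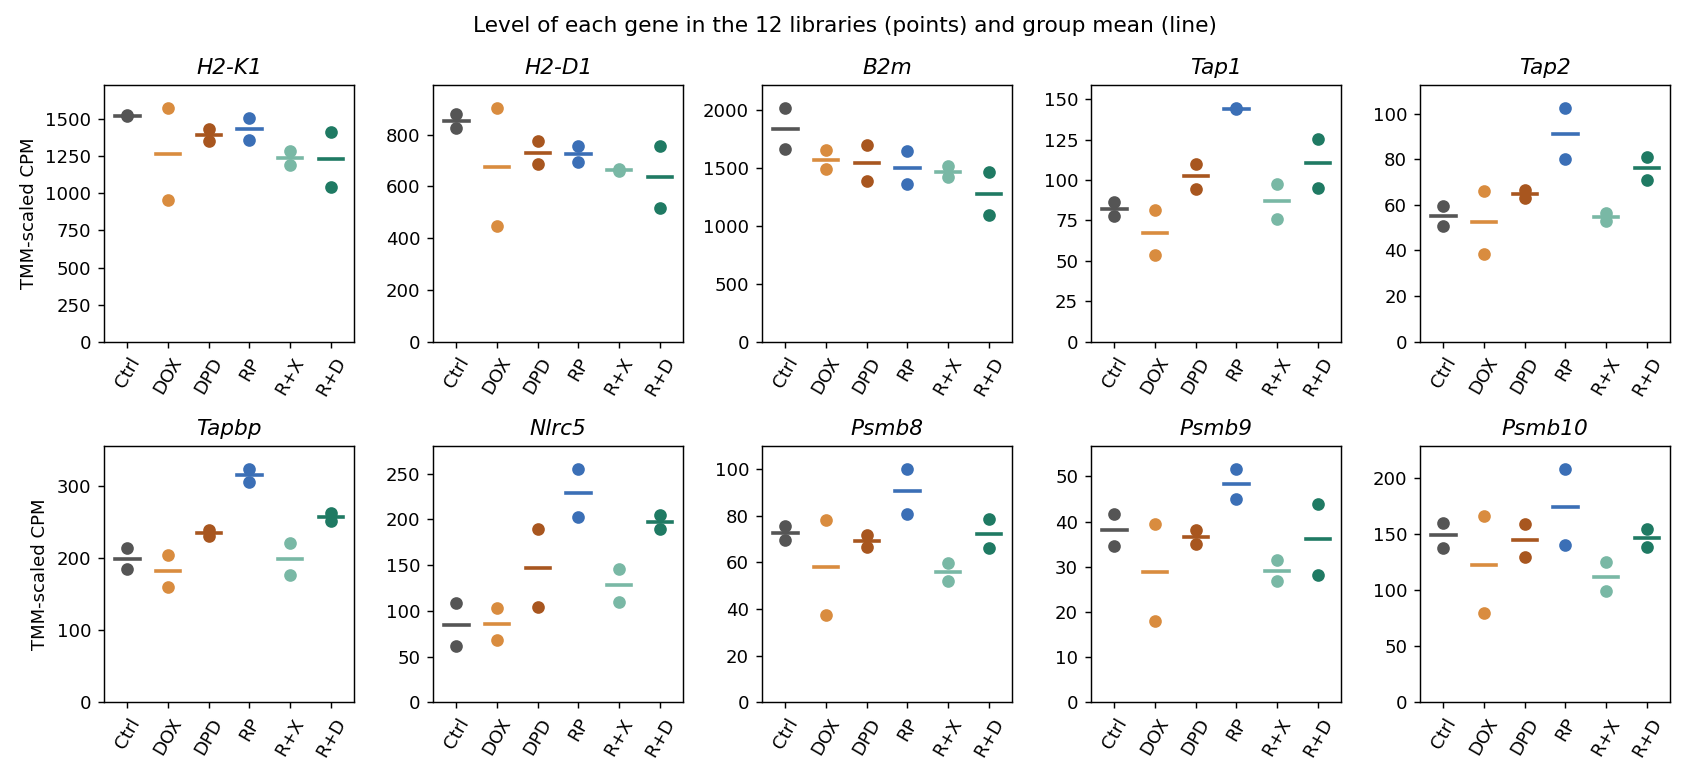
TMM-scaled CPM (linear axis from 0) of the 10 genes in each of the 12 libraries, with points for libraries, lines for group means of 2, and groups on the horizontal axis. Tap1, Tap2, Tapbp and Nlrc5 are above both Ctrl libraries in both RP libraries, while the H2-K1, H2-D1 and B2m points of RP lie below those of Ctrl and the 2 DOX libraries lie far apart for most genes.

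Before removal of the length trend described below, the class I heavy chains and their light chain had a mean below that of Ctrl in every treated group. H2-K1 measured 1527 and 1520.4 CPM in Ctrl, 1574 and 956 in DOX, 1436 and 1355 in DPD, 1505 and 1360.1 in RP, 1283 and 1189 in R+X, and 1046 and 1417 in R+D. Only DOX replicate 1 was above Ctrl, and all libraries of DPD, RP, R+X and R+D lay below both Ctrl libraries. H2-D1 did likewise, at 826 and 878 CPM in Ctrl, 902 and 447 in DOX, 774 and 688 in DPD, 757 and 695 in RP, 668 and 662 in R+X, and 518 and 755 in R+D. B2m was 1666 and 2018 CPM in Ctrl, 1660.2 and 1489.7 in DOX, 1699 and 1393 in DPD, 1364 and 1645 in RP, 1516 and 1424 in R+X, and 1093 and 1469 in R+D. Every B2m value outside Ctrl, other than that of DPD replicate 1, was below both Ctrl libraries. The share of all genes that lay below Ctrl in this way was not computed. The share with both libraries above both of Ctrl was 32.3% in RP and 30.8% in R+D. Against Ctrl, the RP log2 fold changes were -0.09 ± 0.22 (SE) for H2-K1, -0.23 ± 0.28 for H2-D1 and -0.29 ± 0.19 for B2m, all with 95% intervals that include 0. In R+D they were -0.31 ± 0.22, -0.42 ± 0.28 and -0.52 ± 0.19, and B2m was the one of these whose interval excluded 0 (-0.94 to -0.11), with an edgeR adjusted p = 0.314.

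The peptide transporter and tapasin genes had their highest group means in the conjugate-only tumours. Tap1 measured 86.6 and 77.9 CPM in Ctrl, 81.3 and 53.5 in DOX, 94.2 and 110.1 in DPD, 144 and 144 in RP, 97.3 and 76.2 in R+X, and 95 and 125 in R+D. Tap2 measured 59.4 and 50.8 CPM in Ctrl, 66.2 and 38.4 in DOX, 62.8 and 66.5 in DPD, 102 and 79.9 in RP, 56.2 and 52.7 in R+X, and 71 and 81.1 in R+D. Tapbp measured 214.25 and 185 CPM in Ctrl, 204.4 and 161 in DOX, 231 and 239.7 in DPD, 324 and 306 in RP, 221 and 177 in R+X, and 251 and 262 in R+D. For all 3 genes the libraries of RP, R+D and DPD lay above both Ctrl libraries, and those of R+X and DOX overlapped with Ctrl. Of all genes, 32.3% lay above Ctrl in this way in RP and 30.8% in R+D, and the share in DPD was not computed. The RP means were 1.75-fold those of Ctrl for Tap1 (log2 fold change 0.81 ± 0.22), 1.65-fold for Tap2 (0.73 ± 0.24) and 1.58-fold for Tapbp (0.66 ± 0.17). None passed edgeR after adjustment over all genes, with adjusted p = 0.146, 0.167 and 0.13. DESeq2, run as an alternative, called Tap1 (adjusted p = 0.027) and Tapbp (adjusted p = 0.0157) but not Tap2 (adjusted p = 0.0638).

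Nlrc5, the transactivator, differed most from Ctrl of the 10 genes in RP, R+D, DPD and R+X. It measured 108 and 61.6 CPM in Ctrl, 68.6 and 103 in DOX, 104 and 189 in DPD, 202 and 255 in RP, 146 and 110.2 in R+X, and 189.8 and 205 in R+D. Both libraries of RP, R+X and R+D were above both of Ctrl, as were 32.3% of all genes in RP and 30.8% in R+D. The share in R+X was not computed, and there replicate 2 exceeded Ctrl replicate 1 by very little. The log2 fold change against Ctrl was 1.43 ± 0.34 in RP (2.69-fold, edgeR adjusted p = 0.127), 1.21 ± 0.34 in R+D (2.32-fold, edgeR adjusted p = 0.314), 0.79 ± 0.34 in DPD (1.72-fold, edgeR adjusted p = 0.725) and 0.59 ± 0.34 in R+X (1.51-fold, edgeR adjusted p = 0.575). In DOX it was 0.02 ± 0.33. The Ctrl libraries differed most for this gene, and the RP value was 1.07 without Ctrl replicate 2 and 1.89 without Ctrl replicate 1. DESeq2 called Nlrc5 in RP (adjusted p = 0.00321, 7.05% of all genes with an adjusted p) and in R+D (adjusted p = 0.0363, 1.43%). When only RP and Ctrl were in the fit, edgeR called it in RP (adjusted p = 0.0284). The share of all genes called in that fit is not given here, and the fit of all 12 libraries did not call Nlrc5. In these same RP and R+D libraries the heavy chains and B2m were below Ctrl, before removal of the length trend.

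The inducible proteasome subunits had their highest group means in RP and their lowest single values in DOX replicate 2. Psmb8, the counterpart of Psmb5, measured 69.5 and 75.7 CPM in Ctrl, 78.2 and 37.6 in DOX, 71.7 and 66.7 in DPD, 100.1 and 80.9 in RP, 59.6 and 51.9 in R+X, and 66.1 and 78.6 in R+D. Psmb9, the counterpart of Psmb6, measured 34.7 and 41.7 CPM in Ctrl, 39.6 and 18.1 in DOX, 38.2 and 35.1 in DPD, 51.6 and 45 in RP, 31.4 and 26.8 in R+X, and 28.3 and 44 in R+D. Psmb10, the counterpart of Psmb7, measured 138 and 159 CPM in Ctrl, 166 and 79.4 in DOX, 158 and 129.8 in DPD, 208 and 139.7 in RP, 125 and 99.1 in R+X, and 138 and 155 in R+D. RP lay above Ctrl without overlap for Psmb8 and Psmb9 (32.3% of all genes) but not for Psmb10. The share of all genes below Ctrl in R+X was not computed, and all 3 subunits lay below Ctrl in both R+X libraries. Their RP log2 fold changes were 0.32 ± 0.28, 0.34 ± 0.32 and 0.23 ± 0.31, smaller than or near their errors. Psmb10 turned to -0.12 without RP replicate 1. Psmb11, the thymus subunit, was at 0 to 0.15 CPM in every library.

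In RP the constitutive subunits lay below Ctrl, so there the ratio of inducible to constitutive transcript differed from Ctrl by more than either did alone. Psmb5 measured 123 and 182 CPM in Ctrl against 122 and 80.9 in RP, Psmb6 72.7 and 106 against 67.8 and 47.9, and Psmb7 135 and 165 against 125 and 107. Their RP log2 fold changes were -0.59 ± 0.35, -0.63 ± 0.34 and -0.37 ± 0.26 (edgeR adjusted p = 0.335, 0.3 and 0.403). The log2 ratio of Psmb8 to Psmb5 was -0.82 and -1.26 in Ctrl, -1.22 and -1.07 in DOX, -0.85 and -0.59 in DPD, -0.28 and 0.00088 in RP, -0.69 and -0.998 in R+X, and -0.46 and -0.42 in R+D. Both RP and both R+D libraries were above all libraries of the other 4 groups. The log2 ratio of Psmb9 to Psmb6 was -1.07 and -1.34 in Ctrl, -1.46 and -1.38 in DOX, -0.93 and -0.67 in DPD, -0.39 and -0.09 in RP, -1.01 and -1.28 in R+X, and -0.95 and -0.34 in R+D. Here RP was again apart from Ctrl, DOX, DPD and R+X, while R+D replicate 1 lay between R+X replicate 1 and DPD replicate 1. The log2 ratio of Psmb10 to Psmb7 was 0.03 and -0.05 in Ctrl, 0.01 and -0.12 in DOX, 0.21 and 0.23 in DPD, 0.74 and 0.38 in RP, 0.14 and -0.23 in R+X, and 0.45 and 0.47 in R+D. Again every RP and R+D library was above all libraries of the other 4 groups. As differences of group means, the 3 ratios were 0.90, 0.96 and 0.57 log2 units higher in RP than in Ctrl and 0.60, 0.56 and 0.47 higher in R+D, with SDs within these groups from 0.0082 to 0.43. In R+D the inducible subunits themselves were near Ctrl, from -0.08 to -0.01, and in R+X the mean of Psmb10 to Psmb7 differed from that of Ctrl by -0.04. Leaving out 1 library at a time moved the RP differences between 0.39 and 1.12. In R+D the Psmb9 to Psmb6 difference was 0.25 without R+D replicate 2 and 0.86 without R+D replicate 1, and the Psmb8 to Psmb5 difference was 0.38 without Ctrl replicate 2 and 0.82 without Ctrl replicate 1. These ratios were given no test.

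**Figure D2:**
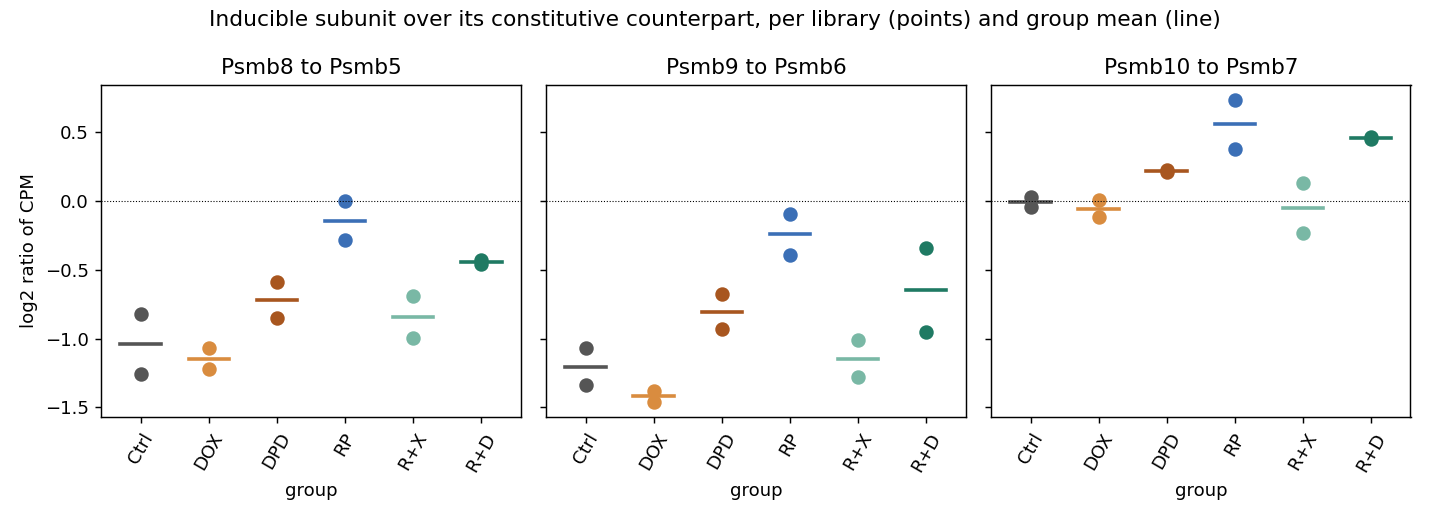
Log2 ratio of the CPM of each inducible subunit to that of its constitutive counterpart, per library (points) and group mean of 2 (line), with groups on the horizontal axis and the dotted line at equal CPM. Both RP libraries lie above both Ctrl libraries in each panel, and the mean differences are 0.90, 0.96 and 0.57.

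What the conjugate alone did to the pathway was asked by comparing RP with Ctrl. Tap1, Tap2, Tapbp and Nlrc5 were 1.58-fold to 2.69-fold those of Ctrl, the immunoproteasome subunits 1.17-fold to 1.26-fold, and the heavy chains and B2m 0.817-fold to 0.94-fold. Of the 10 genes, edgeR called 0 (0.0154% of all genes tested), limma-voom called 0, and DESeq2 called 3 (7.05% of all genes with an adjusted p). At an unadjusted p under 0.05, 4 of 10 were higher (12% of all genes) and 0 lower (9.38%). Both RP libraries were above both Ctrl libraries for 6 of 10 genes (32.3% of all genes). The median of the 10 log2 fold changes was 0.33, against 0.06 over all genes, with a range from -0.29 for B2m to 1.43 for Nlrc5. With the mean log2 CPM of the skeletal muscle markers as a covariate (the muscle covariate), the median was -0.08. Tap1 then stood at 0.47, Tap2 at 0.44, Tapbp at 0.51 and Nlrc5 at 1.39 (edgeR adjusted p from 0.483 to 0.546 for these 4). Without RP replicate 1 the median was 0.16.

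**Figure D3:**
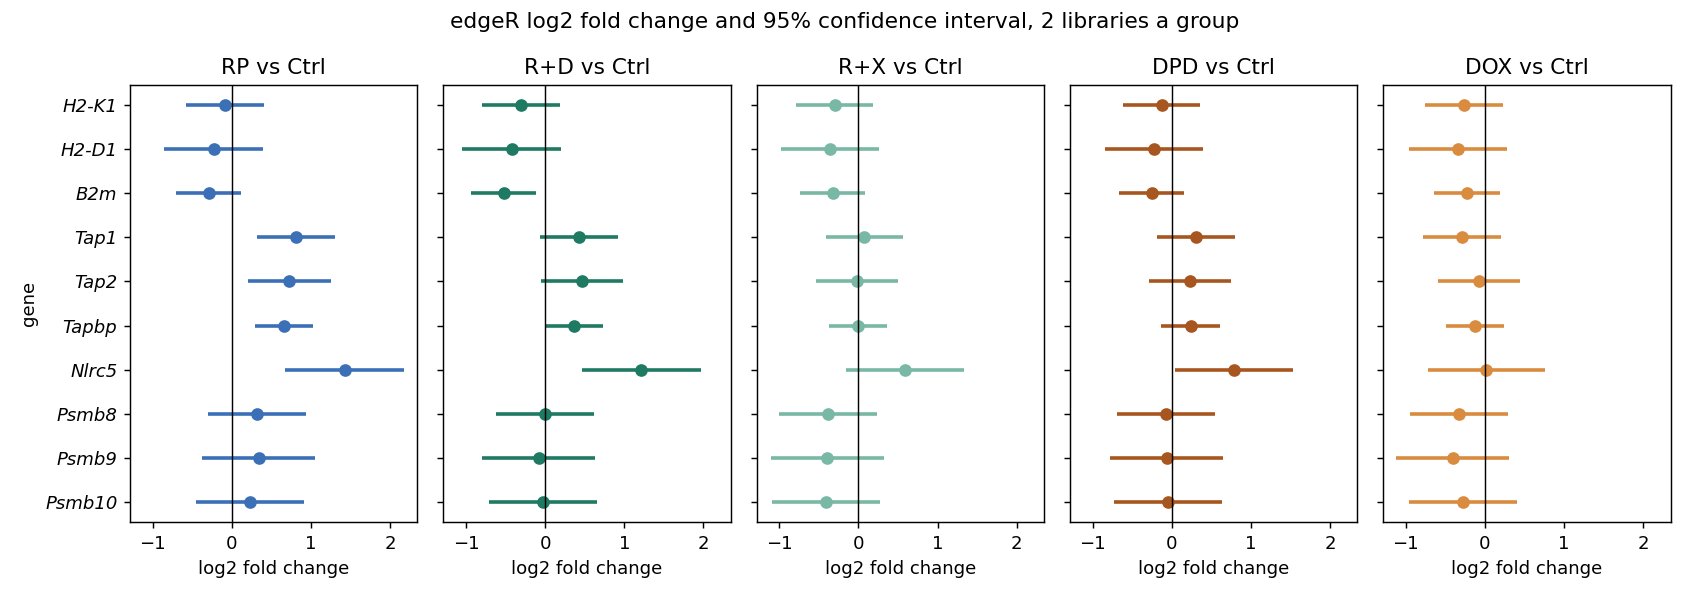
edgeR log2 fold changes against Ctrl (points) with 95% confidence intervals (bars) for the 10 genes in the 5 treated groups, 2 libraries a group. In RP the intervals of Tap1, Tap2, Tapbp and Nlrc5 lie above 0, in R+D that of Nlrc5 lies above 0 and that of B2m below it, and in DPD that of Nlrc5 lies above 0.

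Fold changes of all genes moved with transcript length, and the members differ in length. In RP against Ctrl the Spearman correlation of log2 fold change with length was 0.37 over the 16252 genes with a length (genes are not independent replicates). The median was -0.28 for genes under 2000 bases and 0.43 for those over 5000 bases. Nlrc5 is the longest member, at 7.58 kb, Tap1, Tap2 and Tapbp are 2.95, 3.44 and 2.9 kb, and Psmb8, Psmb9 and Psmb10 are 1.63, 1.35 and 1.31 kb. B2m, H2-K1 and H2-D1 are 0.86, 1.62 and 2.1 kb. After a smooth trend on length and GC content was removed, a step added after the data were seen, Nlrc5 stood at 0.96, Tap1 at 0.83, Tap2 at 0.67 and Tapbp at 0.69. On that scale Psmb8, Psmb9 and Psmb10 stood at 0.58, 0.65 and 0.55, H2-K1 at 0.18, and H2-D1 and B2m at -0.07 each, so the median of the 10 was 0.62. The constitutive subunits are short too (0.899, 0.798 and 1.16 kb for Psmb5, Psmb6 and Psmb7), and stood at -0.18, -0.21 and -0.07. The trend was also present in the other treated groups against Ctrl (Spearman correlation 0.37 in DOX, 0.41 in DPD, 0.49 in R+X and 0.38 in R+D). With it removed there, in that order, H2-K1 stood at -0.17, 0.09, -0.00024 and -0.04. H2-D1 stood at -0.28, -0.08, -0.16 and -0.25, and B2m at -0.10, -0.02, -0.0068 and -0.27. What this dependence on length comes from was not tested.

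**Figure D4:**
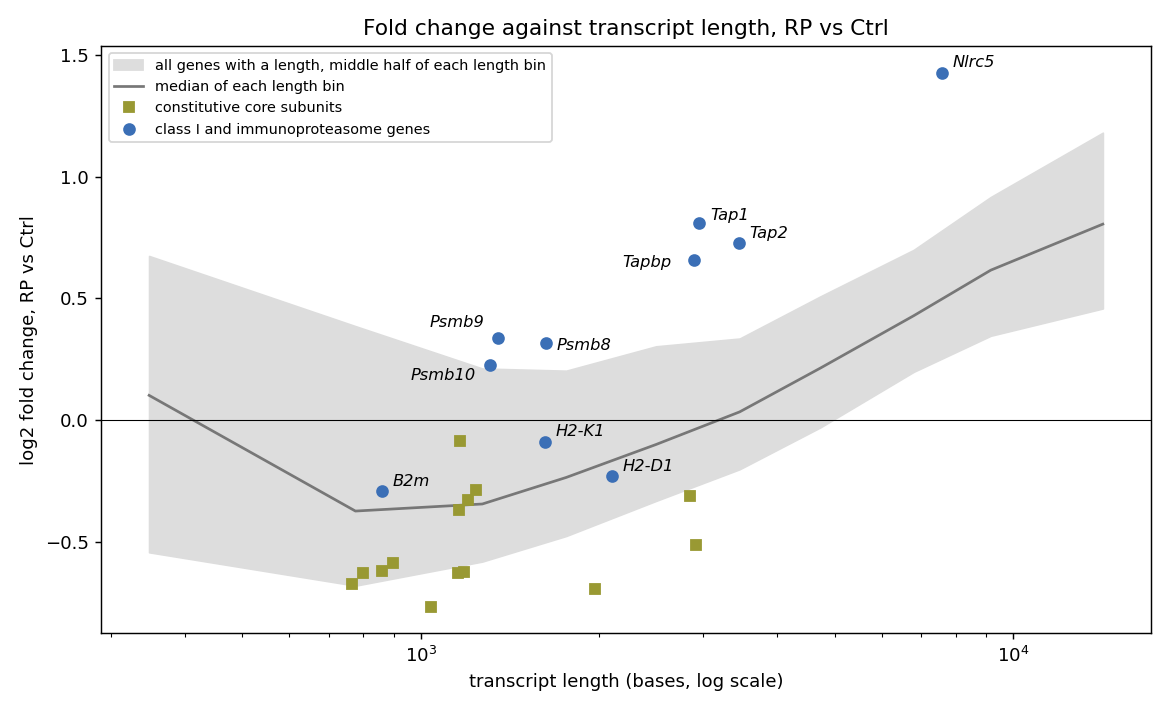
Log2 fold change in RP against Ctrl (vertical axis) by transcript length in bases (horizontal log axis) for the 10 genes (circles) and the 14 constitutive core subunits (squares), over the median and quartiles of all genes in length bins (grey). Tap1, Tap2, Tapbp, Nlrc5 and the 3 immunoproteasome subunits lie above the upper quartile of their bin, H2-K1, H2-D1 and B2m lie between the quartiles, and the core subunits run from -0.77 to -0.09.

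Other genes of the pathway differed by their role in RP against Ctrl. Of the 10 other class I heavy chain genes tested (of 12), 4 were higher at an unadjusted p under 0.05 and 0 lower, with a median of 0.36. They were H2-T24 (1.19 ± 0.30), H2-Q6 (0.99 ± 0.32), H2-Q7 (0.95 ± 0.32) and H2-T22 (0.48 ± 0.20), and since such genes can share reads with close relatives in the MHC their counts are uncertain. The 10 genes of peptide loading and trimming had a median of 0.04, with 5 positive and 5 negative values. Among them, the tapasin relative Tapbpl (0.48 ± 0.16) and the trimming peptidase Erap1 (0.67 ± 0.24) were higher, while the translocon gene Sec61a1 (-0.38 ± 0.14) and the chaperone Hspa5 (-0.32 ± 0.13) were lower. Calr and Pdia3, which encode the other loading-complex proteins calreticulin and ERp57 and were picked after their values were seen, stood at -0.24 ± 0.17 and -0.19 ± 0.14, with both RP libraries below both of Ctrl. The share of all genes below Ctrl in this way was not computed. All 14 constitutive core subunits had negative values with a median of -0.60, and 7 were lower at an unadjusted p under 0.05, led by Psma6 (-0.77 ± 0.25), Psmb1 (-0.69 ± 0.26), Psma7 (-0.63 ± 0.25) and Psmb2 (-0.62 ± 0.23). For comparison, the 2484 genes under 1700 bases with at least 1 CPM had a median of -0.41 and quartiles of -0.63 and -0.12. That set is not matched in length to Psmb1, Psma2 and Psma3, which have 1970, 2911 and 2846 bases. Proteasome activators differed little, with Psme1 at -0.11 ± 0.25 and Psme2 at 0.18 ± 0.26, while the assembly chaperones Psmg1 (-0.61 ± 0.22) and Psmg2 (-0.58 ± 0.22) were lower. None of these genes passed edgeR after adjustment, where their adjusted p ran from 0.13 for H2-T24 to 0.803 for Psme1. Of the genes named in this paragraph DESeq2 called only H2-T24 (adjusted p = 0.00942, 7.05% of all genes with an adjusted p).

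Of the 19 regulators listed, 4 were higher at that level and 0 lower. Among them Rfx5, a subunit of the RFX factor that binds the X box, stood at 0.82 ± 0.19, the interferon regulatory factor Irf8 at 0.66 ± 0.16 and Irf1, an activator of these promoters, at 0.72 ± 0.22. DESeq2 called Rfx5 (adjusted p = 0.00617), Irf8 (adjusted p = 0.0124) and Irf1 (adjusted p = 0.0466), and 7.05% of all genes with an adjusted p. After adjustment edgeR called 0 of the 19 regulators (0.0154% of all genes). Ifng itself was at 0.608 and 0.905 CPM in Ctrl and 1.83 and 1.45 in RP (1.12 ± 0.69, edgeR adjusted p = 0.347). In the class II list only Ciita, the class II transactivator, was higher (0.64 ± 0.23, edgeR adjusted p = 0.182), and the other 6 genes had values from -0.43 to -0.18.

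Markers of leukocytes were also higher in RP, and class I genes are expressed by leukocytes as well as by tumour cells. Summed leukocyte markers were 350 CPM in both Ctrl libraries, 412 to 461 in RP and 332 to 367 in R+D, and 294 to 382 in the other groups, with 3 of 7 higher in RP at an unadjusted p under 0.05. Of all genes, 12% were higher and 9.38% lower at that level in RP, and 8.69% and 6.66% in R+D. The 4 natural killer cell markers were all higher that way (3.79 to 4.44 CPM summed in Ctrl, 9.5 to 11.7 in RP), as were 3 of 7 T cell markers tested (20.5 to 25.6 against 39.9 to 44 CPM) and 5 of 5 endothelial markers (57.3 to 76.9 against 101 to 137 CPM). Macrophage markers were higher in 2 of 7, but 3 of the 7 had negative values and the sums overlapped (1330.4 to 1477 CPM in Ctrl, 1465 to 1683 in RP). Dendritic cell markers were higher in 2 of 5 (9.92 to 10.3 against 16.3 to 18 CPM) and neutrophil markers in 2 of 4 tested (2.61 to 5.09 against 9.52 to 19.5 CPM). B and plasma cell markers were higher in 1 of 3 tested (2.33 to 3.14 against 15.3 to 24.6 CPM). The 8 skeletal muscle markers were all higher too (18.8 to 23 CPM in Ctrl, 83.7 to 217.65 in RP, 21.4 to 287 in R+D, 8.57 to 17.9 elsewhere), and 5 of 5 red blood cell markers were lower (224 to 259 against 50.9 to 88 CPM). In R+D the leukocyte sum spanned that of Ctrl, with 0 of 7 markers higher. There, T cell markers were higher in 1 of 7 (27.3 to 47.2 CPM), B and plasma cell markers in 1 of 3 (5.01 to 16.7 CPM) and natural killer cell markers in 1 of 4 (5.05 to 9.25 CPM). Dendritic cell markers were higher in 2 of 5 (15.3 to 18.4 CPM). Neutrophil markers were higher in 1 of 4 tested, and 3 had negative values (3.43 to 5.42 CPM). Macrophage and endothelial markers were higher in 0. Muscle markers were higher in 8 of 8, and red blood cell markers were lower in 5 of 5 (21.7 to 32.5 CPM). Among these lists, Trac and Ly6g were among the genes below the low-count filter, and 0 genes were at 0 in every library. The muscle covariate holds muscle markers only, and the sums of these in RP did not overlap those of Ctrl. It thus measures none of the other cell types, and a shift with it cannot be assigned to them. The part of these cells in the class I values was not tested. In such bulk samples fewer cells of a type and less RNA per cell cannot be told apart.

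With DOX alone 9 of the 10 genes had negative values against Ctrl, from -0.41 ± 0.32 for Psmb9 upward, and Nlrc5 was at 0.02. None of the 10 passed edgeR (0% of all genes), and 0 were higher (0.86% of all genes) or lower (1.22%) at an unadjusted p under 0.05. DESeq2 and limma-voom called 0. The DOX libraries disagreed: replicate 2 was the lowest of all 12 for 8 of the 10 genes, at 0.457 to 0.787 times the level of replicate 1, whereas Nlrc5 was 1.51 times replicate 1 and B2m 0.897 times. The median of -0.27 became -0.65 without replicate 1 and 0.051 without replicate 2, so the direction rests on DOX replicate 2. Class II genes were lower at an unadjusted p under 0.05 in 5 of 7, with Cd74, the class II invariant chain, at -0.84 ± 0.23 and H2-Aa at -0.91 ± 0.26 (edgeR adjusted p = 1 for each).

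DPD alone gave small positive values for the transporter and tapasin genes. Tap1 stood at 0.31 ± 0.22, Tap2 at 0.23 ± 0.24 and Tapbp at 0.24 ± 0.17, with both DPD libraries above both of Ctrl for each, while B2m was at -0.25 ± 0.19. The share of all genes above Ctrl in this way was not computed for DPD, and it was 32.3% in RP and 30.8% in R+D. Nlrc5 was the 1 member of 10 that was higher at an unadjusted p under 0.05 (2.61% of all genes), and 0 were lower (1.4%). Its value was 0.29 without DPD replicate 2, 0.43 without Ctrl replicate 2 and 1.25 without Ctrl replicate 1. The count by edgeR was 0 of 10 (0% of all genes), and DESeq2 and limma-voom called 0. Ciita (0.54 ± 0.23) and H2-T24 (0.95 ± 0.30) were higher at the same level (edgeR adjusted p = 0.725 for each). Summed red blood cell markers were 25.3 to 124 CPM in DPD, and 5 of 5 were lower at that level.

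R+X, the conjugate with DOX, gave values near or below those of Ctrl for all members but Nlrc5. They ran from -0.41 ± 0.31 for Psmb10 to 0.59 for Nlrc5 with a median of -0.31, and 8 of 10 were negative. For R+X edgeR called 0 of 10 (0% of all genes), and 0 were higher (3.53%) or lower (2.47%) at an unadjusted p under 0.05. DESeq2 and limma-voom called 0. Rfx5 was higher (0.47 ± 0.19) and the class II chain H2-Eb1 lower (-0.71 ± 0.27) at that level, with edgeR adjusted p = 0.575 for each. Summed red blood cell markers were 37.2 to 55.4 CPM in R+X, also lower in 5 of 5.

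In R+D, the conjugate with DPD, Nlrc5, Tap1, Tap2 and Tapbp lay above Ctrl and B2m below it. Nlrc5 was 2.32-fold that of Ctrl, Tap1 stood at 0.42 ± 0.22, Tap2 at 0.47 ± 0.24 and Tapbp at 0.37 ± 0.17, and the immunoproteasome subunits lay between -0.08 and -0.01. With the muscle covariate Tap1 was 0.16, Tap2 0.26, Tapbp 0.26 and Nlrc5 1.18. Tap1 was 0.20 without R+D replicate 2, and B2m, at -0.52, was -0.35 without R+D replicate 1. Here edgeR and limma-voom called 0 of 10 (0% of all genes by edgeR), while DESeq2 called 1, Nlrc5 (1.43% of all genes with an adjusted p). At an unadjusted p under 0.05, 1 of 10 was higher (8.69% of all genes) and 1, B2m, lower (6.66%). Both R+D libraries were above both Ctrl libraries for 4 of 10 genes, a share near the 30.8% of all genes. Constitutive core subunits were lower at that level in 9 of 14 (median -0.62), with Psma6 at -0.77 ± 0.25 and Psmb5 at -0.63 ± 0.35, where the short genes described above had a median of -0.40. Rfx5 (0.65 ± 0.19), Irf1 (0.52 ± 0.22) and H2-T24 (0.78 ± 0.30) were higher and H2-Eb1 was lower (-1.01 ± 0.28), with edgeR adjusted p from 0.314 to 0.318. Of these, DESeq2 called only H2-Eb1 (adjusted p = 0.0416, 1.43% of all genes with an adjusted p).

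Averaged over the 3 conjugate groups against the 3 groups without it, Nlrc5, Tap1, Tap2 and Tapbp differed most. The log2 difference was 0.81 ± 0.19 for Nlrc5, 0.43 ± 0.13 for Tap1, 0.34 ± 0.14 for Tap2, 0.30 ± 0.10 for Tapbp and -0.22 ± 0.11 for B2m. In this comparison edgeR called 0 of 10 (0.0154% of all genes), limma-voom 0 and DESeq2 called 1, Nlrc5 (adjusted p = 0.00482; 5.75% of all genes with an adjusted p). At an unadjusted p under 0.05, 4 of 10 were higher (10.9% of all genes) and 0 lower (9.47%). Without DOX replicate 2 Nlrc5 stood at 0.92, and the median of the 10 genes, 0.11, became -0.039, against 0.33 without DOX replicate 1. With the muscle covariate that median was -0.16, with Tap1 at 0.19, Tap2 at 0.15, Tapbp at 0.20 and Nlrc5 at 0.78.

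The prodrug and its parent drug were compared at the same dose in 2 pairs, DPD with DOX and R+D with R+X. Given alone, DPD tumours had more Tap1 (0.60, 95% interval 0.11 to 1.09) and more Nlrc5 (0.77, 0.03 to 1.51) than DOX tumours, and these were the 2 of 10 genes higher at an unadjusted p under 0.05 (3.01% of all genes), with 0 lower (1.28%). Tapbp (0.37, interval -0.004 to 0.74), H2-K1 (0.14, interval -0.35 to 0.63) and B2m (-0.03, interval -0.44 to 0.39) were not told apart between the drugs. After adjustment edgeR called 0 of 10 (0% of all genes, adjusted p from 0.979 to 0.992), and DESeq2 and limma-voom called 0. Without DOX replicate 2 the median of the 10 differences, 0.28, became -0.11 and Tap1 stood at 0.33, and without DOX replicate 1 they were 0.73 and 0.93, so the direction of the median rests on DOX replicate 2. Nlrc5 stood at 0.27 without DPD replicate 2 and 1.14 without DPD replicate 1.

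With the conjugate, R+D had higher values than R+X for 7 of the 10 genes, with a median difference of 0.36. The differences were 0.62 for Nlrc5 (95% interval -0.12 to 1.36), 0.48 for Tap2 (-0.04 to 1.00), 0.37 for Tapbp (-0.001 to 0.74), 0.38 for Psmb8 (-0.24 to 0.99) and 0.39 for Psmb10 (-0.30 to 1.07). Heavy chain and light chain differed less, at -0.01 for H2-K1 (-0.50 to 0.49) and -0.20 for B2m (-0.61 to 0.21). At an unadjusted p under 0.05, 0 were higher (3.75% of all genes) or lower (1.52%), and edgeR called 0 of 10 (0% of all genes). DESeq2 and limma-voom called 0. With the muscle covariate the median difference was 0.048. The interval for Nlrc5 reaches 1.36, so these values do not show that the drugs act alike.

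Adding the conjugate to a drug was compared with the drug alone, although the route of the drug differs as well. The conjugate dose and the schedule of the combined groups are also not given. R+X against DOX ran from -0.13 ± 0.31 for Psmb10 to 0.58 ± 0.34 for Nlrc5, and R+D against DPD from -0.27 ± 0.19 for B2m to 0.43 ± 0.33 for Nlrc5. Single libraries moved these ends: in R+D against DPD, Nlrc5 was 0.059 without DPD replicate 1 and 0.91 without DPD replicate 2, and B2m was -0.093 without R+D replicate 1 and -0.51 without R+D replicate 2. In R+X against DOX, Nlrc5 was 0.31 without DOX replicate 1 and 0.90 without DOX replicate 2, and Psmb10 was 0.50 and -0.565 likewise. In either comparison edgeR called 0 of 10 (0% of all genes in both), 0 had an unadjusted p under 0.05, and DESeq2 and limma-voom called 0. Of all genes, 1.75% were higher and 1.04% lower at that unadjusted level in R+X against DOX, and 1.52% and 0.789% in R+D against DPD. Whether the conjugate's effect differed in the presence of a drug was tested as an interaction. With DOX it was smaller by 0.54 ± 0.24 log2 units for Tapbp, and by 0.85 ± 0.47 for Nlrc5. With DPD it was smaller by 0.70 ± 0.31 for Tap1, by 0.53 ± 0.24 for Tapbp and by 1.00 ± 0.47 for Nlrc5. With single libraries left out, the Nlrc5 interaction ran from -1.32 without Ctrl replicate 1 to -0.498 without Ctrl replicate 2 for DOX, and from -1.47 without Ctrl replicate 1 to -0.49 without DPD replicate 2 for DPD. The Tapbp interaction with DOX was -0.35 without DOX replicate 1. At an unadjusted p under 0.05, 1 of 10 was lower with DOX (2.75% of all genes) and 2 of 10 with DPD (3.45%), and 0 were higher (0.958% and 1.01%). As adjusted by edgeR 0 of 10 passed in either (0% of all genes in both), with adjusted p = 0.998 and 0.84 for the genes named, and DESeq2 and limma-voom called 0.

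The 10 genes did not vary as 1 block across the libraries. Over the 12 libraries, which share depth and scaling, log2 CPM of H2-K1 and H2-D1 correlated with r = 0.98 (Spearman rho = 0.99), Psmb8 and Psmb9 with r = 0.97 (rho = 0.98), Psmb8 and Psmb10 with r = 0.97 (rho = 0.87), and Tap1 and Tapbp with r = 0.96 (rho = 0.96). The head-to-head pair of Tap1 and Psmb9, whose interval is printed above, had r = 0.80 (rho = 0.66). Nlrc5 correlated with Tapbp (r = 0.79, rho = 0.85) and Tap1 (r = 0.76, rho = 0.86), hardly with Psmb10 (r = 0.11, rho = 0), and inversely with B2m (r = -0.61, rho = -0.61) and H2-D1 (r = -0.33, rho = -0.35). H2-K1 and Nlrc5 had r = -0.19 (rho = -0.28). H2-K1, H2-D1 and B2m thus all had negative values with Nlrc5. Psmb9 had a positive value with Nlrc5 (r = 0.23, rho = 0.36), as did Tap1. These correlations are of log2 CPM with the length trend left in, and Nlrc5 is the longest member. Whether they relate to the promoter matches printed above was not tested. The mean profile of the 10 genes, each scaled to its own SD, was highest in RP replicate 1 (1.09) and lowest in DOX replicate 2 (-1.75).

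**Figure D5:**
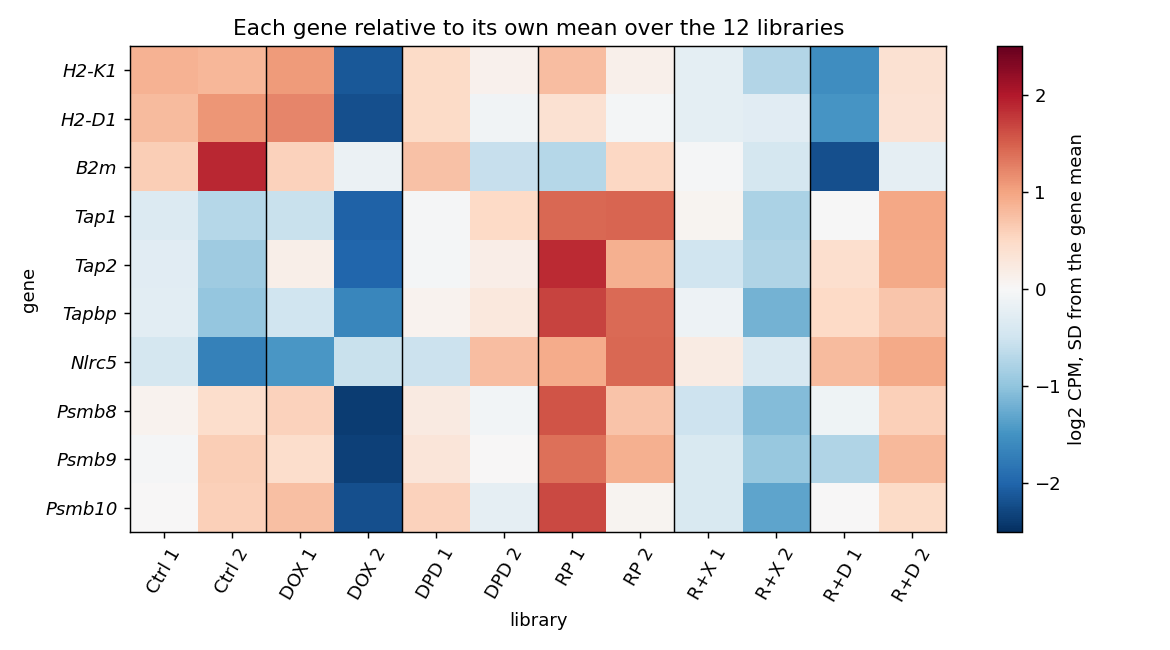
Log2 CPM of each gene (rows) in each library (columns, 2 per group between black lines), coloured as SDs from that gene's own mean over the 12 libraries. DOX replicate 2 is low for all rows but Nlrc5 and B2m, RP is high for Tap1, Tap2, Tapbp and Nlrc5, and H2-K1, H2-D1 and B2m are lowest in DOX replicate 2 or R+D replicate 1.

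Outside the list, the 10 named genes of at least 1 CPM most like this mean profile were Nrgn (r = 0.96), Socs1 (0.95), Thy1 (0.95), Tubb3 (0.94), H2-T22 (0.94), Nppb (0.94), H2-T23 (0.93), Arl4d (0.93), Cfp (0.93) and Pstpip1 (0.93), over 12 libraries. Socs1 is an inhibitor of interferon signalling, Thy1 a surface marker of T cells and fibroblasts, H2-T22 and H2-T23 class Ib heavy chains, and Cfp the complement factor properdin. Without DOX replicate 2 and RP replicate 1, the libraries farthest from the median of the profile, r ran from 0.80 for Nppb to 0.92 for Tubb3.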

How the data were processed

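Per the labels' protocols, RNA from tumour tissue was extracted with TRIzol and made into NEBNext Ultra libraries. The submitters' processing notes name HISAT2 2.1.0, StringTie 1.3.5, DESeq2 and build GRCm38. No source used here gives their roles, the annotation release, strand use or gene filters. The authors deposited whole-number counts per gene, not normalized. From these, 1 edgeR 4.0.16 quasi-likelihood fit (R 4.3.3) held all 12 libraries in 6 groups (TMM, filterByExpr, Benjamini-Hochberg over 19525 genes, called at an adjusted p under 0.05). Errors of log2 fold changes are SEs of that fit, and intervals are 95%. Alternatives were RLE scaling, no filter, DESeq2 1.42.0, limma-voom (limma 3.58.1), left-out libraries, compared groups alone, a muscle covariate and removal of a length and GC trend. The edgeR test was checked on counts with known changes. The 10 members and gene lists were chosen with earlier results of these data known. Named others are a fixed panel, up to 4 genes of smallest p per list, and the 10 most alike; predicted genes and name copies are not named, and 1 listed regulator is not reported here. Transcript lengths are the longest coding transcript of GENCODE.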

Additional observations from a re-analysis of the deposited data

How the results depend on the processing

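No paired analysis was possible because the labels number no replicates. A lone library left after its mate was left out is assumed to vary like the other groups. Of 215 recomputed counts of called members, 210 kept the value 0. DESeq2 called 3 members in RP, 1 in R+D and 1 in the averaged conjugate comparison, edgeR with only the compared groups 1 in RP, and single left-out libraries gave 0 to 1 in the averaged comparison. Of 151 recomputed medians of the members, 14 moved. With the muscle covariate the median was -0.080 in RP, -0.16 in the averaged comparison and 0.048 in R+D against R+X. With the length and GC trend removed (chosen after seeing the data) it was 0.62 in RP, 0.21 in DPD, -0.011 in R+X, 0.28 in R+D and 0.29 in the averaged comparison. Left-out libraries gave medians from -0.65 to 0.051 in DOX, -0.039 to 0.33 in the averaged comparison and -0.11 to 0.73 in DPD against DOX. The cause of these shifts was not tested.

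Of 1809 recomputed fold changes, 22 changed sign. In RP, the muscle covariate gave Psmb8 -0.011, Psmb9 -0.20, Psmb10 -0.15 and Psme2 -0.21, and trend removal gave H2-K1 0.18 and Psme1 0.25. With single libraries left out, RP values ran from -0.12 to 0.47 for Psmb10, -0.36 to 0.17 for Psme1 and -0.14 to 0.41 for Psme2. In DOX they ran from -0.34 to 0.48 for Nlrc5 and -1.08 to 0.052 for Psmb9, and Nlrc5 was -0.19 with the trend removed. In DPD against DOX they ran from -0.17 to 0.55 for H2-K1 and -0.18 to 0.10 for B2m, which was 0.078 with the trend removed. In R+D against R+X, H2-K1 ran from -0.25 to 0.18, and in R+X against DOX, Psmb10 ran from -0.565 to 0.50. The cause was not tested. Precision is limited by 2 libraries a group and 6 residual degrees of freedom.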

Other observations

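Of the 10 genes, the 7 on chromosome 17 also appear in the table as rows with the same name and a numbered suffix, 21 rows in all. The first such copy of each held nearly the counts of the gene itself, from 93.3% for Psmb9 to 100% for Tap1 over the 12 libraries, and the other 2 copies of Psmb8, Psmb9, Tap1, Tap2 and Tapbp held 12.8% to 35.5%. H2-K1 had 2 further copies at 0 counts, and those of H2-D1 held 93.9% to 95.7%. B2m, Nlrc5 and Psmb10 had no such rows. Copies were left out of the values above, and no source used here says what the suffixed rows represent.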
